A study of Mus musculus with 10 samples.

Results

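Schwann cell and myelin genes were measured as a reading of the nerve content of mouse dermis. The 8 genes *Mbp*, *Prx*, *Pmp22*, *Sox10*, *S100b*, *Ngfr*, *Cdh19* and *Egr2* were taken by symbol from the 24452 named genes of the count table, and all 8 were among the 15543 genes that passed the filter on low counts and were tested. The samples were full-thickness biopsies of treated but nontumoral back skin from 5 WT and 5 *Zfp36*ΔARE mice, each sequenced as 1 library, all C57BL/6 and with littermates as controls. *Zfp36* encodes tristetraprolin (TTP), an RNA-binding protein that shortens the life of mRNAs with AU-rich elements, and the knockin mice carry their *Zfp36* gene without an instability motif of its 3′-UTR, in every cell of the body. All mice, WT included, were 7 weeks old when the shaved back skin received 400 nmol of DMBA, the mutagen that initiates lesions, and then 10 nmol of TPA, the phorbol ester that promotes them, 2 times a week for 20 weeks. The comparison asks how the skin transcriptome differs between the genotypes after this treatment.

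Schwann cells wrap the axons of peripheral nerves. Myelinating Schwann cells build a compact sheath around a single large axon, whereas nonmyelinating cells hold bundles of thin axons, and the skin holds many of the latter. *Sox10* is the transcription factor of the whole lineage and turns on *Egr2* (Krox20), and together they switch on the genes of the sheath, among them *Pmp22*, *Mbp* and *Prx*. *Ngfr* (the p75 neurotrophin receptor), *Cdh19* (a cadherin of the lineage) and *S100b* (a calcium-binding protein) mark Schwann cells more broadly. Few of these genes belong to nerve alone. Melanocytes share the neural crest origin and also use *Sox10* and *S100b*. *Egr2* and *Ngfr* are also used in hair follicles, *S100b* in fat cells, and *Pmp22* in fibroblasts and epithelia.

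TTP binds AU-rich elements in the 3′-UTR of its targets, for which the 7-base core TATTTAT is a preferred site, so the annotated 3′-UTRs of the 8 genes were searched for it. The longest annotated 3′-UTR of each gene in GENCODE M21 was read on the strand of the gene, with overlapping matches counted. *Mbp*, *Pmp22*, *Sox10*, *Ngfr* and *Cdh19* held 1 match each and *Prx*, *S100b* and *Egr2* held 0, while 29.5% of 14401 tested genes with an annotated 3′-UTR held at least 1. The 4 windows below show the match in capitals with its neighbouring bases on either side, 5′ to 3′, in the mm10 (GRCm38) genome.
Pmp22, chr11:63158610-63158632, plus strand: ataaaaccTATTTATaacacttt
Sox10, chr15:79155016-79155038, minus strand: tgccccttTATTTATctccatag
Ngfr, chr11:95569070-95569092, minus strand: tctttgtgTATTTATtttcctcc
Cdh19, chr1:110889645-110889667, minus strand: ttaaggtaTATTTATataaaatg
The match began at base 203 of the 1132-base 3′-UTR of *Pmp22*, base 908 of 1030 in *Sox10*, base 1719 of 1985 in *Ngfr* and base 39 of 1372 in *Cdh19*. Among tested genes with 3′-UTRs of 80% to 120% of a member's length, the motif was found in 58.2% for *Mbp*, 27.3% for *Pmp22*, 24.1% for *Sox10*, 38.9% for *Ngfr* and 31.0% for *Cdh19*. For *Prx*, *S100b* and *Egr2*, which held 0 matches, the shares were 61.7%, 25.7% and 28.8%. A match is a description of the sequence and not a site of binding.

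In RefSeq's annotation of GRCm38.p6, *Pmp22* lies on chromosome 11 from 63128982 to 63159547 (plus strand), *Ngfr* on chromosome 11 from 95568818 to 95587698 (minus), *Sox10* on chromosome 15 from 79154913 to 79164490 (minus), *Egr2* on chromosome 10 from 67534469 to 67542188 (plus), *S100b* on chromosome 10 from 76253836 to 76261319 (plus) and *Cdh19* on chromosome 1 from 110888002 to 110977601 (minus). *Mbp* lies on chromosome 18. *Prx* lies on chromosome 7 from 27499305 to 27520041 (plus), 856743 bases from the edited *Zfp36* gene on the same chromosome, and its locus overlaps the antisense gene *Gm15541*. In GENCODE M21 *Cdh19* overlaps *Gm38255* and *Gm36944* on its own strand, and *Mbp* overlaps the pseudogene *Rpl21-ps8* on the other strand. The effect of these overlaps on the counts was not tested.

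Total counts per library ran from 19595024 to 36419553, and a normalized count here is a count scaled by edgeR's TMM factors to the mean library size. Mean normalized counts of *Zfp36* itself (± SD of 5 libraries) were 2152 ± 277 in WT and 5427 ± 766 in *Zfp36*ΔARE skin, higher in all 5 *Zfp36*ΔARE libraries than in any WT library. The libraries differed in more than genotype. The mean log2(CPM + 1) of 10 hair shaft keratins was 5.21 in WT replicate 1 and 2.44 in WT replicate 3, against 7.71 to 8.14 in the other WT libraries and 8.89 to 10.3 in *Zfp36*ΔARE libraries. The same score for 12 skeletal muscle markers was highest in WT replicates 3 (11.5) and 1 (10.6). *Xist* reached 14829 to 28087 counts in all WT mice and *Zfp36*ΔARE replicate 1, whereas it had 4 to 15 counts in *Zfp36*ΔARE replicates 2 to 5, which alone held Y-linked counts (3349 to 4262, against at most 1 elsewhere). Sex marks and genotype could be separated only through *Zfp36*ΔARE replicate 1.

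Of the 8 genes, 2 passed an adjusted p of 0.05 in edgeR's quasi-likelihood test, *Pmp22* and *Mbp*, both lower in *Zfp36*ΔARE skin. Over all tested genes 34.3% passed, 19.1% being lower and 15.3% higher, so 2 of 8 was near the background of these libraries. Also past a fold change of 2 were 0 of the 8 genes, where 8.31% of all tested genes were, and DESeq2 and limma-voom also gave 0. The 5 values of each group lay apart from those of the other for the same 2 genes, against 23.1% of tested genes. Of the 5 genes with a TATTTAT match, *Pmp22* and *Mbp* passed and *Sox10*, *Ngfr* and *Cdh19* did not. *Prx*, *S100b* and *Egr2*, without a match, did not pass either. A link between the motif and the calls was not tested. The median log2 fold change was -0.096 over the 8 genes and 0.0076 over all tested genes. The first of these was -0.20 without *Zfp36*ΔARE replicate 1, -0.21 without WT replicates 1 and 3 and -0.052 without *Zfp36*ΔARE replicate 5.

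**Figure D1:**
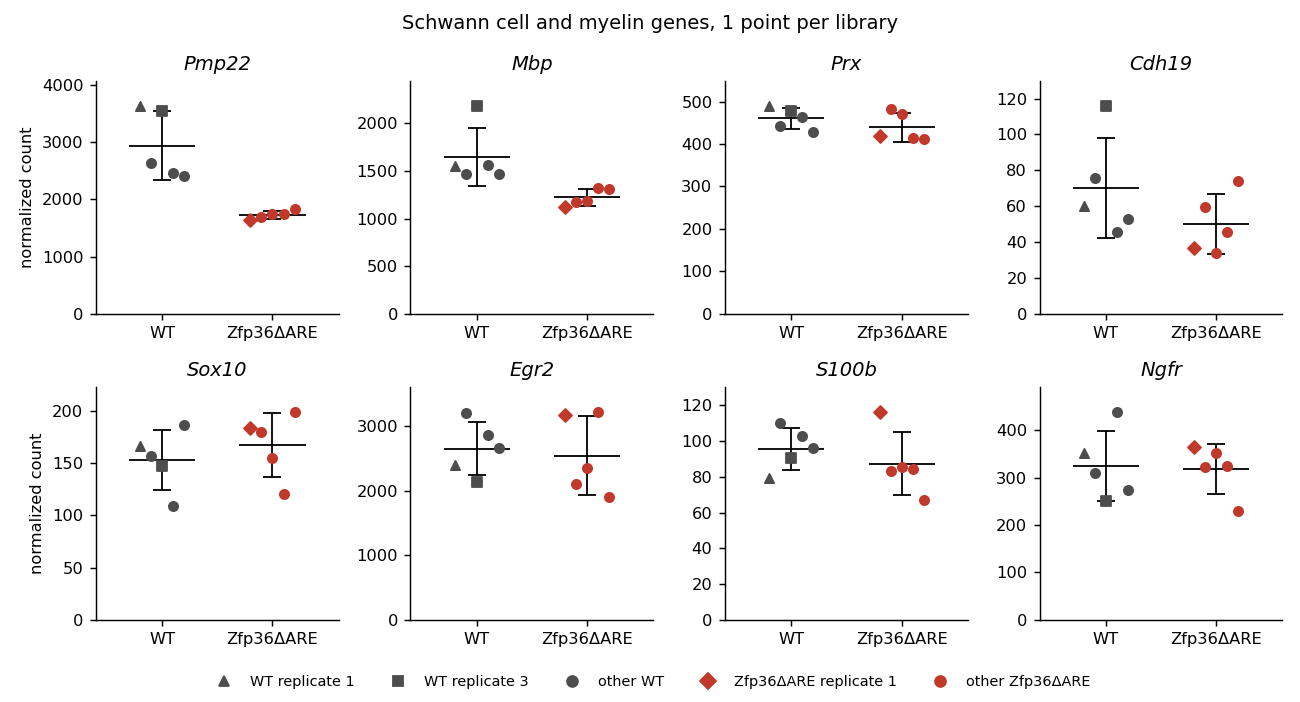
Normalized counts of the 8 genes in each library of WT (grey) and *Zfp36*ΔARE (red) skin, with the mean (line) and SD (bars) of 5 libraries per group and linear axes from 0. For *Pmp22* and *Mbp* every *Zfp36*ΔARE point lies below every WT point, with WT replicates 1 (triangle) and 3 (square) the highest for *Pmp22*, and for the other 6 genes the groups overlap.

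*Pmp22* encodes a small membrane protein of compact myelin, and both extra copies and loss of the human gene cause demyelinating neuropathy. Its normalized counts were 3637, 2631, 3553, 2470.0 and 2408 in WT replicates 1 to 5 and 1639.6, 1696, 1750.4, 1741 and 1836 in *Zfp36*ΔARE replicates 1 to 5. The groups did not overlap, and the spread was wide in WT and narrow in *Zfp36*ΔARE skin. WT replicates 1 and 3 stood above the other 3 WT libraries, which lay within 2408 to 2631. The means were 2939.8 ± 604 in WT and 1732 ± 72.5 in *Zfp36*ΔARE skin, a fall of 1.70-fold (log2 fold change -0.76, standard error 0.12, adjusted p = 0.00522, 95% interval -1.03 to -0.49). The exact two-sided permutation test gave p = 0.00794, the smallest that 5 against 5 libraries allow. Without WT replicates 1 and 3 the log2 fold change was -0.53 with adjusted p = 0.0029.

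*Mbp* encodes myelin basic protein, which holds the inner faces of the myelin membrane together. The same locus gives rise to golli transcripts of immune cells and neurons, which counts per gene cannot separate. Its normalized counts were 1551, 1465, 2183, 1564 and 1469 in WT replicates 1 to 5 and 1122, 1178, 1183, 1324 and 1315 in *Zfp36*ΔARE replicates 1 to 5. WT replicate 3 stood far above the other WT libraries, which lay within 1465 to 1564, and all *Zfp36*ΔARE libraries lay below those. The means were 1646 ± 303 in WT and 1224 ± 90.3 in *Zfp36*ΔARE skin, a fall of 1.34-fold (log2 fold change -0.43, standard error 0.11, adjusted p = 0.0178, 95% interval -0.67 to -0.18; exact permutation p = 0.00794). Without WT replicates 1 and 3 the log2 fold change was -0.29 with adjusted p = 0.0275.

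The library with the sex marks of the WT mice, *Zfp36*ΔARE replicate 1, was the lowest of all 10 libraries for both genes, at 1639.6 for *Pmp22* and 1122 for *Mbp*. Taken alone against WT, in a fit that assumes it to vary like the other groups, it gave log2 fold changes of -0.84 for *Pmp22* (adjusted p = 0.184) and -0.55 for *Mbp* (adjusted p = 0.196). In that fit edgeR passed 0 of all tested genes after adjustment, and 3382 genes, *Pmp22* and *Mbp* among them, had an unadjusted p under 0.05. In whole skin, fewer Schwann cells, less RNA per Schwann cell and less RNA from other cell types cannot be told apart.

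*Prx* encodes periaxin, which ties the outer surface of the myelinating Schwann cell to its basal lamina. Its spread was the smallest of the 8 genes in WT (coefficient of variation 5.37%), with normalized counts of 490.0, 443, 477, 463 and 429 in WT and 419.6, 482, 471, 414 and 411 in *Zfp36*ΔARE skin. The groups overlapped (log2 fold change -0.066, standard error 0.0742, adjusted p = 0.501, exact permutation p = 0.278). The 95% interval of -0.23 to 0.10 leaves out the estimates for *Pmp22* (-0.76) and *Mbp* (-0.43) but overlaps the interval of *Mbp* (-0.67 to -0.18). A difference between *Prx* and *Mbp* was not tested.

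*Cdh19* had the lowest mean count of the 8 genes in each group, with normalized counts of 59.9, 75.9, 116, 45.6 and 52.6 in WT and 36.7, 59.8, 34.0, 45.4 and 73.8 in *Zfp36*ΔARE skin. WT replicate 3 was again the highest, the groups overlapped, and 3 *Zfp36*ΔARE libraries lay below every WT library. The means were 70.0 ± 28.0 in WT and 49.9 ± 16.7 in *Zfp36*ΔARE skin (log2 fold change -0.49, standard error 0.30, adjusted p = 0.221, exact permutation p = 0.175). The interval of -1.15 to 0.18 reaches from a more than 2-fold fall to a small rise, and the coefficient of variation was 40.1% in WT. A fall like that of *Pmp22* and no difference cannot be told apart here.

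*Sox10* had normalized counts of 167, 157, 148, 109 and 187 in WT and 184, 180.2, 155, 120.2 and 199 in *Zfp36*ΔARE skin. The groups overlapped almost wholly, replicate 4 being the lowest of each (log2 fold change 0.13, standard error 0.17, adjusted p = 0.574, interval -0.25 to 0.51). Beside it, all 12 melanocyte markers were higher in *Zfp36*ΔARE skin, where 15.3% of all tested genes were. The share of *Sox10* RNA that came from melanocytes was not tested.

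*Egr2* counts were 2394, 3203, 2133, 2858 and 2665 in WT and 3163, 2099, 2342, 3215 and 1894 in *Zfp36*ΔARE skin. The range of the *Zfp36*ΔARE libraries took in that of the WT libraries (log2 fold change -0.06, standard error 0.16, adjusted p = 0.795, interval -0.42 to 0.30). *S100b* counts were 79.2, 109.9, 90.3, 103 and 96.0 in WT and 116, 83.3, 85.7, 84.1 and 67.3 in *Zfp36*ΔARE skin, with both the highest and the lowest library in the *Zfp36*ΔARE group (log2 fold change -0.13, standard error 0.16, adjusted p = 0.56, interval -0.48 to 0.23). The *S100b* gene overlaps *Dip2a* on the other strand, and the strand setting of the counting is not given in the sources used here. *Ngfr* counts were 352, 311, 251, 439 and 274 in WT and 365, 323, 352, 324 and 231 in *Zfp36*ΔARE skin, with means of 325 and 319 (log2 fold change -0.027, standard error 0.17, adjusted p = 0.911, interval -0.40 to 0.34). Exact permutation p-values were 0.492 for *Sox10*, 0.635 for *Egr2*, 0.357 for *S100b* and 0.905 for *Ngfr*.

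The 8 levels can be set in order only per length of gene model, as normalized counts per kb. In WT skin *Pmp22* (1250 ± 257, SD, n = 5) and *Egr2* (894 ± 139) stood highest, with overlapping ranges. *Mbp* (245 ± 45.2) followed, then *Ngfr* (95.6 ± 21.7) and *Prx* (87.5 ± 4.70), *S100b* (57.6 ± 7.08) and *Sox10* (56.5 ± 10.6), and last *Cdh19* (22.9 ± 9.18). The ranges of *Ngfr* and *Prx* overlapped, as did those of *S100b* and *Sox10*, while the other neighbours lay apart. In *Zfp36*ΔARE skin *Egr2* (858 ± 206) and *Pmp22* (737 ± 30.8) changed places within overlapping ranges, as did *Sox10* (61.8 ± 11.4) and *S100b* (52.6 ± 10.7). *Egr2* RNA was thus far above that of the lineage factor *Sox10* per kb in either genotype.

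Of 15 other myelin sheath genes 14 were tested. Lower in *Zfp36*ΔARE skin were 6 (*Mag*, *Cldn19*, *Cnp*, *Fa2h*, *Drp2* and *Nfasc*), 1 was higher (*Cadm4*), against 19.1% and 15.3% of all tested genes, and the median log2 fold change was -0.61. Past a fold change of 2 were 2 lower and 1 higher, where 6.64% and 1.67% of all tested genes were.

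*Mag*, the adhesion protein of the membrane facing the axon, had normalized counts of 46.0, 45.2, 39.0, 28.1 and 31.0 in WT and 8.99, 18.1, 17.6, 16.0 and 14.5 in *Zfp36*ΔARE skin (log2 fold change -1.34, standard error 0.24, adjusted p = 0.00651). *Cldn19*, the claudin of the sheath's tight junctions, had 39.6, 41.2, 79.3, 52.4 and 36.1 in WT and 8.99, 19.9, 18.7, 20.0 and 29.0 in *Zfp36*ΔARE skin (log2 fold change -1.38, standard error 0.32, adjusted p = 0.0121). For both genes every *Zfp36*ΔARE library lay below every WT library, and replicate 1 was the lowest. Without WT replicates 1 and 3 the log2 fold changes were -1.22 for *Mag* and -1.19 for *Cldn19*, with adjusted p-values of 0.0237 and 0.0385. With the hair shaft score as a covariate in edgeR neither passed (*Mag* -1.22, adjusted p = 0.15, and *Cldn19* -0.93, adjusted p = 0.294).

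*Cnp*, an enzyme of the noncompact sheath, fell from 532 to 323 (log2 fold change -0.72, adjusted p = 0.00766). *Fa2h*, which makes the hydroxylated lipids of myelin and also of the epidermis and sebaceous glands, fell from 6404 to 3425 (log2 fold change -0.90, adjusted p = 0.0115). *Drp2*, the partner of periaxin at the outer Schwann cell membrane, was also lower (log2 fold change -0.77, adjusted p = 0.0204), although *Prx* itself did not pass. Without WT replicates 1 and 3 *Drp2* did not pass either (-0.48, adjusted p = 0.096), nor in the replicate block (adjusted p = 0.0524). *Nfasc* (log2 fold change -0.99, adjusted p = 0.0304) lost its call when any of 5 single libraries was left out. *Drp2* and *Nfasc* were named after their values were seen. *Cadm4*, a cell adhesion protein of Schwann cells that epithelia also make, went the other way, from 323 to 1001 (log2 fold change 1.63, adjusted p = 0.00911), and its lowest libraries were WT replicates 1 and 3 (137 and 172), the 2 with little hair keratin RNA. *Gal3st1*, which makes the sulfated lipid of myelin, did not pass (log2 fold change -0.31, adjusted p = 0.122) except without WT replicate 2, and *Pmp2*, with 2 to 15 counts per library, was not tested.

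**Figure D2:**
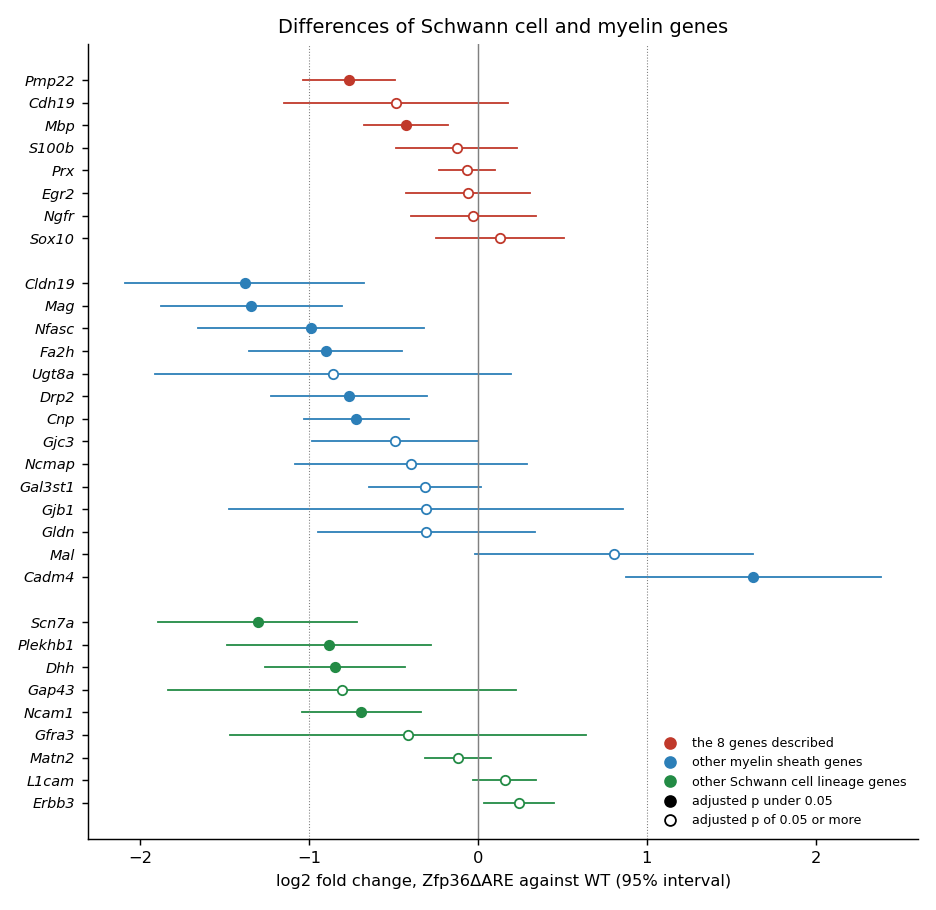
Log2 fold change of *Zfp36*ΔARE against WT with its 95% interval for the 8 genes (red), the other tested myelin sheath genes (blue) and the other tested Schwann cell lineage genes (green), with filled points for an adjusted p under 0.05 and dotted lines at a 2-fold change. *Pmp22* and *Mbp* are the filled red points, *Cldn19* and *Mag* lie to the left of them below a 2-fold fall, and *Cadm4* alone is a filled point on the right.

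Of 12 further genes of the Schwann cell lineage 9 were tested, of which 4 were lower, where 19.1% of all tested genes were, and the other 5 did not pass. The median over these 9 was -0.69. It was -0.38 over 10 tested genes without *Zfp36*ΔARE replicate 1, and -0.22 and -0.28 over 11 without replicates 3 and 4. It was -0.33 over 10 without WT replicates 1 and 3 and -0.37 over 12 in DESeq2. These medians thus cover different sets of genes. *Scn7a*, the sodium channel of nonmyelinating Schwann cells and of other tissues, had 596, 457, 799, 335 and 286 in WT and 163, 192, 235, 175 and 236 in *Zfp36*ΔARE skin (log2 fold change -1.31, standard error 0.27, adjusted p = 0.00851). The groups lay apart, WT replicate 3 was the highest, and the log2 fold change was -0.85 without WT replicates 1 and 3 (adjusted p = 0.0179). *Plekhb1* was lower (log2 fold change -0.88, adjusted p = 0.0324) but lost its call without any of 5 single libraries. The other two were named after their values were seen. They were *Dhh*, the hedgehog ligand that Schwann cells send to the sheath around the nerve (log2 fold change -0.85, adjusted p = 0.0106), and *Ncam1*, an adhesion protein of nonmyelinating Schwann cells and of muscle (log2 fold change -0.69, adjusted p = 0.012). The most abundant members, *Erbb3* (log2 fold change 0.24, adjusted p = 0.069), *L1cam* (log2 fold change 0.16, adjusted p = 0.168) and *Matn2* (log2 fold change -0.12, adjusted p = 0.308), did not pass. *Erbb3*, the receptor through which axonal neuregulin drives Schwann cells, is also made by keratinocytes and melanocytes.

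Among 12 partners and paralogs of *Sox10* and *Egr2*, 10 were tested, 1 was lower and 3 were higher, near the 34.3% of all tested genes that passed. The median was 0.22, and 0.11 without WT replicates 1 and 3. *Zeb2*, a repressor that Schwann cells need in order to myelinate and that macrophages also use, fell from 1921 to 863 (log2 fold change -1.15, adjusted p = 0.00446), and every *Zfp36*ΔARE library lay below every WT library. Its log2 fold change was -0.87 without WT replicates 1 and 3 (adjusted p = 0.00553). *Egr3* (log2 fold change 0.50, adjusted p = 0.00996) and *Tfap2a* (log2 fold change 0.50, adjusted p = 0.0331) were higher, as was *Nab2*, the corepressor that binds *Egr2* (log2 fold change 0.68, adjusted p = 0.00966), named after its value was seen. *Tfap2a* lost its call without any of 5 single libraries. *Egr1* (log2 fold change 0.25, adjusted p = 0.448) and *Jun*, the driver of the repair state of injured Schwann cells (log2 fold change 0.19, adjusted p = 0.379), did not pass.

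Of the 13 genes for signals between axon and Schwann cell and for the basal lamina, 7 were lower and 3 higher, against 19.1% and 15.3% of all tested genes, with a median of -0.29. Without WT replicate 1 these were 6 and 1, without WT replicates 1 and 3 they were 5 and 1, and in the replicate block 5 and 2. *Itga6*, which was lower, lost its call without any of 7 single libraries. *Adam22* (lower) and *Adgrg6* (higher) lost theirs without any of 6, and *Erbb2* (higher) without either of 2. These genes were named after their values were seen. *Nrg2*, a neuregulin ligand, rose from 160.4 to 423 (log2 fold change 1.39, adjusted p = 0.0136), and WT replicates 1 and 3 were again the lowest (99.5 and 62.2). With these 2 left out the log2 fold change of *Nrg2* was 0.99 (adjusted p = 0.0168). The laminin genes *Lama4* (log2 fold change -1.03, adjusted p = 0.00531) and *Lamc1* (log2 fold change -0.49, adjusted p = 0.00672) and the laminin receptor subunit *Itgb1* (log2 fold change -0.34, adjusted p = 0.00989) were lower, while *Lamb1* (log2 fold change -0.049, adjusted p = 0.663) and *Dag1* (log2 fold change -0.11, adjusted p = 0.198) did not pass. These laminin genes also serve blood vessels, fat and muscle. *Lama4* stood at -0.76 without WT replicates 1 and 3 (adjusted p = 0.00665). *Lgi4*, a Schwann cell ligand needed for myelination, fell from 305 to 163 (log2 fold change -0.90, adjusted p = 0.00643), and is named here after its value was seen.

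Of the 13 neurotrophins and partners of *Ngfr*, 4 were lower, where 19.1% of all tested genes were, and the other 9 did not pass. The median was -0.16, and -0.26 without *Zfp36*ΔARE replicate 2. *Ntrk2*, the receptor for brain-derived neurotrophic factor, fell from 1989 to 1237 (log2 fold change -0.68, adjusted p = 0.00401), without overlap. The others were *Ntf3* (log2 fold change -0.97, adjusted p = 0.0228, but 0.115 without WT replicates 1 and 3 and 0.0609 in the replicate block), *Rtn4r* (log2 fold change -0.53, adjusted p = 0.0357) and *Maged1* (log2 fold change -0.23, adjusted p = 0.0329), the first 2 named after their values were seen. *Rtn4r* lost its call without any of 7 single libraries and *Maged1* without any of 6, and the list held 2 lower genes without WT replicate 1 or 2 or without *Zfp36*ΔARE replicate 1, 3 or 4. *Sort1* (log2 fold change 0.16, adjusted p = 0.108) and *Sorcs2* (log2 fold change -0.016, adjusted p = 0.956), which pair with *Ngfr* at the membrane, did not pass, as *Ngfr* did not.

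Of 9 genes mutated in inherited demyelinating neuropathy outside the lists above, 1 was lower, where 19.1% of all tested genes were. The median was 0.075, 0.12 without WT replicate 2, 0.049 without *Zfp36*ΔARE replicate 2 and 0.011 without WT replicates 1 and 3. That gene was *Gdap1*, which acts in mitochondrial division (45.2 to 13.8, log2 fold change -1.72, adjusted p = 0.035), and it lost its call without WT replicate 1 or 3 or without *Zfp36*ΔARE replicate 1, 2, 4 or 5. *Sbf1* (log2 fold change 0.19, adjusted p = 0.0544), *Ndrg1* (log2 fold change 0.23, adjusted p = 0.111), *Litaf* (log2 fold change -0.12, adjusted p = 0.322) and *Sbf2* (log2 fold change 0.075, adjusted p = 0.37), all widely expressed, did not pass.

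Marker genes of several other cell types in the biopsy also differed between the genotypes. All 12 melanocyte markers were higher in *Zfp36*ΔARE skin, with a median log2 fold change of 1.34 and summed normalized counts of 6403 to 17757 in WT and 18190.3 to 31471 in *Zfp36*ΔARE skin. Gene by gene, 7 of the 12 lay apart between the groups and the rest overlapped. Of 10 hair shaft keratins 2 passed as higher and all 10 lay apart between the groups, with a median of 2.29 and sums of 2040.2 to 98992 against 153046 to 454756. Lower in *Zfp36*ΔARE skin were 11 of 12 skeletal muscle markers (median -1.51), 8 of 10 adipocyte markers (-1.07), 9 of 10 endothelial markers (-0.98), 7 of 10 fibroblast markers (-0.69) and 9 of 10 macrophage markers (-1.33), while the rest of these lists did not pass. Lower were also 2 of 6 hair follicle stem cell markers (-0.36) and 2 of 6 basal keratinocyte markers (-0.21). Over all tested genes, 19.1% passed as lower and 15.3% as higher, and 11.2% lay apart with *Zfp36*ΔARE above WT. None of 8 T cell markers had an adjusted or an unadjusted p under 0.05 (0 of 8 in edgeR's test, median 0.013). The part of these tissues in the differences of *Pmp22* and *Mbp* was not tested beyond the 3 fits with a tissue score.

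**Figure D3:**
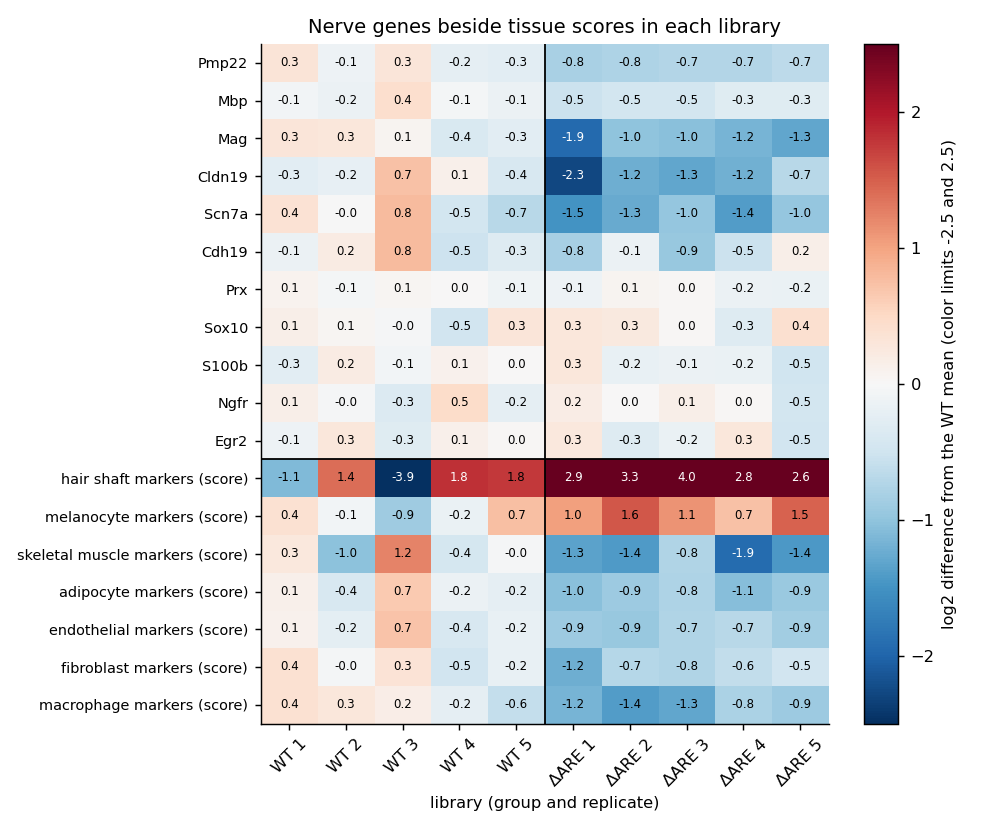
Log2(normalized count + 1) of the 8 genes and of *Mag*, *Cldn19* and *Scn7a*, and marker scores (mean log2(CPM + 1)) of 7 tissues, in each library as the difference from the WT mean, blue for lower and red for higher. *Zfp36*ΔARE libraries are blue for *Pmp22*, *Mbp*, *Mag*, *Cldn19* and *Scn7a* and for the muscle, adipocyte, endothelial, fibroblast and macrophage scores, and red for the hair shaft and melanocyte scores, while WT replicate 3 stands apart in the opposite direction for *Mbp* and for the hair shaft and muscle scores.

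With a tissue score added to the fit as a covariate, the differences of *Pmp22* and *Mbp* stayed below 0 and no longer passed. For *Pmp22* the log2 fold change was -0.43 with the hair shaft score, -0.47 with the muscle score and -0.61 with the melanocyte score, with adjusted p-values of 0.0983, 0.19 and 0.434. For *Mbp* it was -0.14, -0.18 and -0.10 (adjusted p = 0.529, 0.541 and 0.789). Over all tested genes, 27 passed as lower and 3 as higher with the hair shaft score, 2 and 0 with the muscle score, and 0 and 0 with the melanocyte score. At an unadjusted p under 0.05 in edgeR's test there were 2201, 2630 and 1545 genes. The scores and the genotype moved together over these libraries and cannot be told apart. *Pmp22* was the member with an unadjusted p under 0.05 in each of the 3 fits. *Cdh19* moved to 0.12 with the hair shaft score (adjusted p = 0.905), and *Sox10* to -0.27 with the melanocyte score (adjusted p = 0.688). In each of the 3 fits, 0 genes of the pathway lists above passed in either direction. The median log2 fold change of the myelin sheath genes was -0.31, -0.36 and -0.49 with the hair shaft, muscle and melanocyte scores. For the Schwann cell lineage genes it was -0.35, -0.33 and -0.47.

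**Figure D4:**
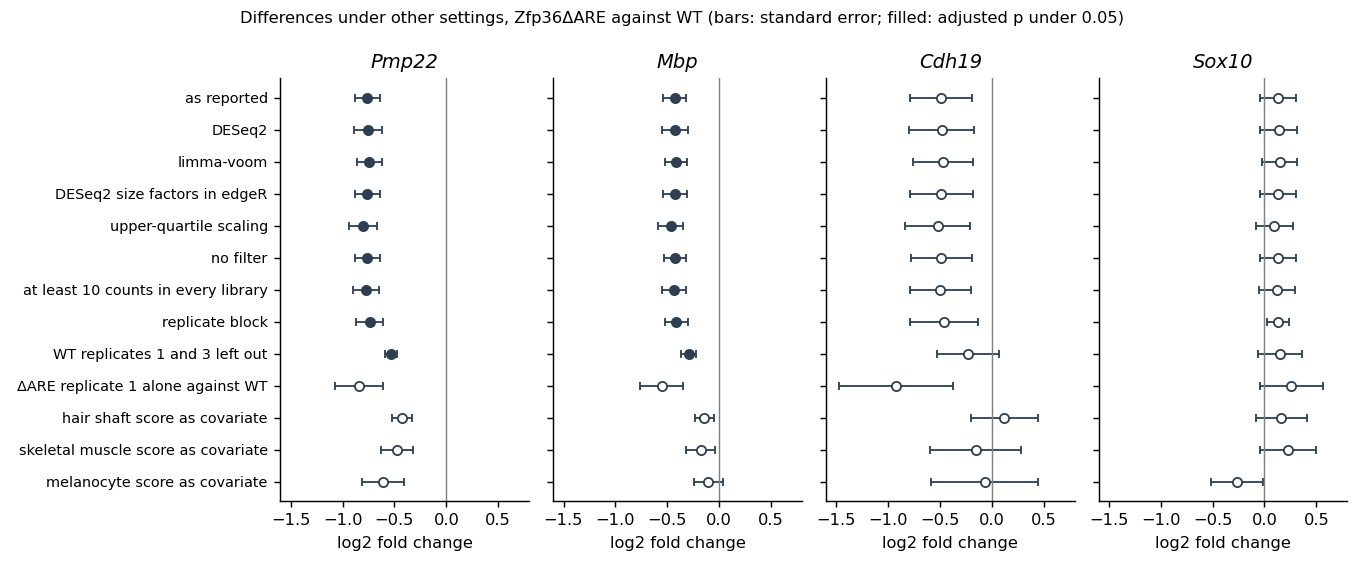
Log2 fold change of *Zfp36*ΔARE against WT (point) with its standard error (bar) for *Pmp22*, *Mbp*, *Cdh19* and *Sox10* under 13 settings, filled where the adjusted p was under 0.05. *Pmp22* and *Mbp* stay below 0 in every row, filled except for *Zfp36*ΔARE replicate 1 alone and the 3 tissue covariates.

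The cell bodies of the axons in skin lie outside it, in ganglia. Of 13 axon and neuron markers 4 were tested, and *Nefl*, *Nefm*, *Snap25* and *Prph* had at most 5 counts in any library. *Tubb3* (log2 fold change 0.77, adjusted p = 0.111) and *Stmn2* (199.6 to 93.9, log2 fold change -1.09, adjusted p = 0.0122) were the most abundant. The lowest libraries for *Tubb3* were WT replicates 3 and 1 (192 and 648), the 2 with little hair keratin RNA. Which cells these RNAs came from was not tested. The 2 that passed, *Stmn2* and *Uchl1* (log2 fold change -0.87, adjusted p = 0.0294, named after its value was seen), were lower, where 19.1% of all tested genes were. Of 6 oligodendrocyte markers, which would mark central myelin, 0 reached the tested set and *Mog*, *Opalin* and *Olig2* had 0 counts in all 10 libraries.

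The genes whose pattern over the 10 libraries was most like that of a member were found by the SD of their log2 ratio to it, among 13690 genes whose normalized count averaged 50 or more. The likest to *Mbp* were *Ddb2* (SD 0.064), *Ptp4a2* (0.068) and *Mocs2* (0.076), against a median SD of 0.36, and each held the peak in WT replicate 3. For *Prx* they were *Tsc22d1* (0.044), *Rere* (0.053) and *Chchd2* (0.061), against a median of 0.24. For *Sox10* they were *Pax3* (0.14), *Mpp2* (0.17) and *Gm16973* (0.17), against a median of 0.35, and *Pax3* is itself a neural crest factor of melanocytes and Schwann cell precursors. For *Cdh19* they were *Adh1* (0.19), *Aebp1* (0.24) and *Skint8* (0.24), against 0.57. The libraries share their depth and tissue content, so these are descriptions of pattern.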

How the data were processed

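RNA-Seq was performed by the authors on total RNA of full-thickness, nontumoral skin from 5 WT and 5 *Zfp36*ΔARE mice. Per the methods and the submitters' processing notes, the authors dropped reads of low mean quality, aligned with STAR (2.5.2b) to mm10, assigned fragments to genes by featureCounts of Subread (1.5.0-p1) and tested with DESeq2. The deposited values are raw counts, without normalization. How fragments matching several genes were handled, and the strand setting, are not given in the sources used here. Of the rows, 2 had no gene name (7.38e-05% of counts) and were left out.

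From the deposited counts, edgeR 4.0.16 (R 4.3.3) computed TMM factors, kept genes by filterByExpr and fitted the robust quasi-likelihood model with genotype alone, with Benjamini-Hochberg adjustment over the 15543 genes tested. A gene passed at an adjusted p under 0.05. Intervals are 95% intervals of the fit. Single genes were also tested by an exact two-sided permutation of mean log2(CPM + 1), with a pseudocount of 1 CPM and 252 splits. A list's score is the mean log2(CPM + 1) of its genes. Lists were described by counts and medians, with no set test. 1 list gene was matched by its Entrez ID. Each library is 1 mouse.

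The 8 genes, the lists, the tests and the alternatives were chosen with earlier results of these data known. Named besides the 8 genes were, per pathway list, the 4 tested genes with the highest mean normalized count and those past an adjusted p of 0.05 and a fold of 2 (up to 4 more), the 2 most abundant of marker lists, and the 3 genes most like *Mbp*, *Prx*, *Sox10* and *Cdh19*. Others are marked in the text. Some genes of these lists are not reported here and were left out of their counts. Alternatives were DESeq2 1.42.0, limma-voom (limma 3.58.1), scaling by DESeq2's size factors or by upper quartiles, testing without a filter or with a minimum of 10 counts in each library, a replicate block, each library left out, WT replicates 1 and 3 left out, and hair shaft, muscle and melanocyte scores as covariates. *Zfp36*ΔARE replicate 1 alone against WT was added after seeing the data. On simulated data for this comparison (15446 genes tested), edgeR recovered 52% of genes changed by 0.75 and 81.8% of those changed by 1.5 on the log2 scale, and 8.28% of its calls were false. The false share was 23.4% for DESeq2 and 7.14% for limma-voom. Each gene was simulated independently, without sex or tissue differences between libraries, so these shares do not carry over to the calls above.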

Additional observations from a re-analysis of the deposited data

Results flagged for a closer look

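Of 146 groups of 5 libraries examined over the named genes, 5 held a library whose gap to the nearest other was above 0.71 of the group's range, where chance alone gives about 7.3. In WT replicate 3, *Mbp* stood at 2183 normalized counts against 1465 to 1564 in the other WT libraries. The same library was the highest of WT for *Ddb2* (504 against 379 to 390) and *Mocs2* (1918 against 1393 to 1507), which were named for their likeness to *Mbp*. In the same library the hair shaft score was the lowest (2.44) and the muscle score the highest (11.5) of all 10. *Zfp36*ΔARE replicate 2 stood above the rest of its group for *Maged1* (3898, the others 3501 to 3585). *Gm16973*, named for its likeness to *Sox10*, was lowest in WT replicate 4 (139 against 183 to 196).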

How the results depend on the processing

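Of the 8 genes, 2 passed (*Pmp22* and *Mbp*, both lower) as reported, with DESeq2, limma-voom, both other scalings, both other filters and the replicate block, without each library in turn (2 to 2) and without WT replicates 1 and 3. The count was 0 with each of the 3 tissue covariates and for *Zfp36*ΔARE replicate 1 alone (edgeR; members with an unadjusted p under 0.05 were 1, 1, 1 and 2). With each library left out, *Pmp22* ran from -0.83 to -0.67 (adjusted p 0.00325 to 0.0187) and *Mbp* from -0.47 to -0.31 (0.0101 to 0.044). Genes past both thresholds numbered 1292 as reported and 839 to 1521 with each library left out, the lowest being without WT replicate 3. They fell to 526 without WT replicates 1 and 3, to 13, 2 and 0 with the hair shaft, muscle and melanocyte covariates and to 0 for *Zfp36*ΔARE replicate 1 alone. In the replicate block 983 genes passed both, and *Pmp22* stood at -0.74 (adjusted p = 0.0274) and *Mbp* at -0.41 (0.0487). The block lowered the genes past an adjusted p of 0.05 from 2962 lower and 2373 higher to 1851 and 889. Myelin sheath genes went from 6 to 4 lower in the block and neurotrophin genes from 4 to 1. None of the 5 same-numbered pairs correlated above 0.1. The labels do not say whether the numbers pair mice, and a shared litter or batch was not tested. Genes that did not pass changed sign in places. *Ngfr* ran from -0.11 to 0.10 and *Egr2* from -0.16 to 0.024 with each library left out. *Ngfr* was 0.0017, 0.10 and 0.062 without WT replicate 1, WT replicate 4 and *Zfp36*ΔARE replicate 5, 0.027 with the melanocyte covariate and 0.16 for *Zfp36*ΔARE replicate 1 alone. *Egr2* was 0.018, 0.0029 and 0.024 without WT replicate 2, *Zfp36*ΔARE replicate 2 and *Zfp36*ΔARE replicate 5, 0.099 with the melanocyte covariate and 0.25 for *Zfp36*ΔARE replicate 1 alone. *S100b* was 0.018 with the melanocyte covariate and 0.28 for *Zfp36*ΔARE replicate 1 alone. *Cdh19* was 0.12 with the hair shaft covariate, *Prx* 0.031 with the muscle covariate and *Sox10* -0.27 with the melanocyte covariate. The causes were not tested. Whole skin gives no count of Schwann cells.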
